A study of Mus musculus with 12 samples.

Results

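Transcripts of 5 potassium channel genes were followed in inguinal white adipose tissue (iWAT), the subcutaneous fat pad in which beige adipocytes form in the cold. Kcnk3 encodes a background potassium channel, and Kcnj11, Kcnj8, Abcc8 and Abcc9 encode the subunits of ATP-sensitive potassium (KATP) channels. The genes were chosen by symbol, and partly because the counts of Kcnj11 and Abcc8 were high in cold libraries of the knockout, so their values in those libraries are described and not tested. The 5 genes are 5 of the 23420 genes in the table of read counts, and all 5 were among the 15306 genes that passed the filter on low counts.

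RNA-seq was done on iWAT of C57BL/6 male mice at 10 weeks of age, with 3 libraries in each of 4 groups. All mice carried HIF2a loxP/loxP alleles, the WT mice without Cre and the mice labelled HIF2α AKO (adipocyte knockout) with Adipoq-Cre, a Cre that is driven by the adiponectin promoter and acts in adipocytes, white and thermogenic alike. Cre and the loss of HIF2α therefore always occurred together, and the other cells of the fat pad kept their alleles. Mice of each genotype were kept for 1 week at 30 °C (thermoneutral, TN) or for 3 days at 4 to 6 °C (cold). The labels do not say that the libraries of a group came from separate mice, so p-values measure the spread between libraries. Depth ranged from 22368316 to 35204631 counts on genes.

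Epas1, the gene of HIF2α, gave no check of the labels. Its mean was 360 CPM (counts scaled to the library size after TMM normalization) in TN WT and 348 CPM in TN HIF2α AKO, and 627 CPM in cold WT and 826 CPM in cold HIF2α AKO (edgeR adjusted p = 0.999 at TN and 1.00 in cold). In cold, all 3 HIF2α AKO libraries were above all 3 WT libraries (log2 fold change 0.40 ± 0.20 SE). Epas1 was thus not reduced, and genotypes follow the labels alone. Counts over the whole gene can include exons outside the deleted part, but single exons were not examined and the cause was not tested. Adipocyte markers (8 genes, summed) lay between 4997 and 13479 CPM in the 6 TN libraries and between 17427 and 34201 CPM in the 6 cold ones, and thermogenic markers such as Ucp1 (8 genes) between 28.4 and 90.6 CPM in TN and between 3350 and 8582 CPM in cold. There were 3 libraries that stood apart. Skeletal muscle markers (12 genes, Acta1 and Ckm among them) summed to 1753 CPM in cold HIF2α AKO library 1 and to 2026 CPM in TN HIF2α AKO library 2, against 42.0 to 133 CPM in the other 10. Epithelial markers (7 genes, keratins and Epcam among them) summed to 214 CPM in TN WT library 3, against 2.95 to 10.6 CPM in the other 11. Results are given with and without these 3 libraries, a choice made after the data had been seen.

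Potassium channels let potassium leave the cell and so hold the membrane potential negative. The protein of Kcnk3, TASK-1, has 2 pore domains per subunit, is open at rest and is closed by acid, and in thermogenic adipocytes it is known to oppose the depolarization and calcium entry that follow adrenergic stimulation. A KATP channel is made of inward rectifier subunits that line the pore (Kir6.2 from Kcnj11 or Kir6.1 from Kcnj8) and of sulfonylurea receptors of the ABC transporter family that surround it (SUR1 from Abcc8 or SUR2 from Abcc9). ATP closes the pore and nucleotides at the receptor favour its opening, which couples the membrane potential to the metabolic state. Kir6.2 with SUR1 is the channel of pancreatic β cells and many neurons, Kir6.2 with SUR2A that of skeletal and heart muscle, and Kir6.1 with SUR2B that of vascular smooth muscle and pericytes.

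The KATP genes lie as neighbours, a pore gene beside a receptor gene. In GRCm38 with the GENCODE M21 annotation, Kcnj11 is at chr7:46093953-46100764 and Abcc8 at chr7:46104523-46180033, both on the minus strand, 3758 bases apart and with 0 genes between them. Kcnj8 is at chr6:142564837-142571614 and Abcc9 at chr6:142587862-142702315, also on the minus strand, 16247 bases apart with 0 genes between them. Kcnk3 is at chr5:30588170-30625271 on the plus strand and overlaps Gm9899 on the minus strand. Abcc8 overlaps 2 gene models, Gm45487 on its own strand and Gm45486 on the opposite strand, and Abcc9 overlaps 5330439B14Rik on the opposite strand, which had 0 to 2 counts per library. Reads in exons that overlap such a model cannot be told apart without the strand and annotation of the counting. Counts of the 2 models at Abcc8 were not analysed here, and the Abcc8 transcript used here shared no 31-base stretch with their transcripts. The coding sequences of Kcnj11 and Kcnj8 were identical at 74.5% of aligned bases, and those of Abcc8 and Abcc9 at 71.4%, so each level rests on reads of the paralogs being told apart. The longest runs that the paralogs share were 21 and 23 bases. They are printed in capitals with 20 bases on each side in lower case, from coding base 599 of Kcnj11, 629 of Kcnj8, 533 of Abcc8 and 527 of Abcc9, counted from 1 at the start codon:
Kcnj11: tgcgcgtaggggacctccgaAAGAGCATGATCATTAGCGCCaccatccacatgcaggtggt
Kcnj8: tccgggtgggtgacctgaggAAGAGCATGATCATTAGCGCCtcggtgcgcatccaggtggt
Abcc8: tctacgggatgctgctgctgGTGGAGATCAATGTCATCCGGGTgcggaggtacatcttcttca
Abcc9: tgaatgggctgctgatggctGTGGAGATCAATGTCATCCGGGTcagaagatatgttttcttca
The bases on both sides of each shared run differ between the paralogs. No 31-base stretch of the transcripts of Kcnj11, Abcc8 and Kcnj8 occurred in a transcript of another gene, whereas 6.48% of such stretches of Kcnk3 and 3.59% of those of Abcc9 did.

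Kcnk3, the background channel, rose with cold in both genotypes. In TN WT its libraries had 38.9, 14.8 and 52.9 CPM, and in cold WT they had 210, 267 and 142 CPM. In the libraries labelled HIF2α AKO it had 27.2, 65.0 and 45.7 CPM in TN and 478, 312 and 244 CPM in cold. Every cold library of a genotype was above every TN library of that genotype. The share of all genes with such a separation was not counted for cold against TN, or for the genotypes at TN, so here and below it is a description. Group means were 35.5 ± 19.3 CPM in TN WT, 46.0 ± 18.9 in TN HIF2α AKO, 206 ± 62.4 in cold WT and 345 ± 121 in cold HIF2α AKO (SD, n = 3 libraries).

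**Figure D1:**
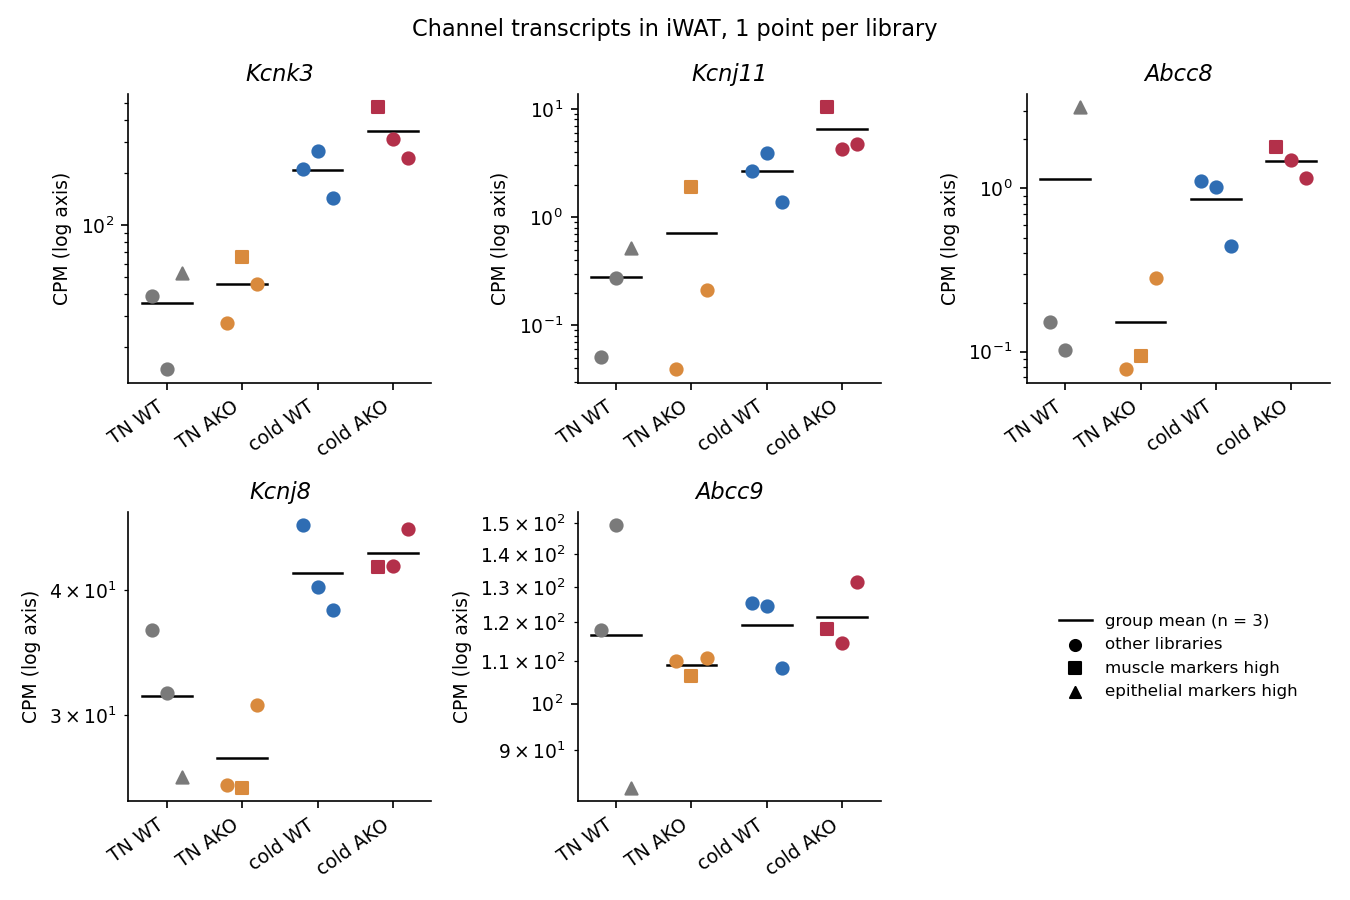
CPM of the 5 genes on a log axis, with 1 point per library, a line at the mean of each group, and squares and a triangle for the libraries in which muscle or epithelial markers were high. Kcnk3 and Kcnj11 are higher in every cold library than in any TN library of the same genotype, Abcc8 is highest in the TN WT library with epithelial markers, and Abcc9 overlaps between cold and TN WT.

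In WT, Kcnk3 rose 5.81-fold with cold (log2 fold change 2.54 ± 0.47 SE, edgeR quasi-likelihood test, adjusted p = 0.00479). Of all genes tested, 15.6% were called higher in cold and 5.68% lower in this comparison. Under upper quartile scaling, 42.6% of the called genes in WT were higher, against 73.3% with TMM scaling, and the median of all genes moved by -0.14 on the log2 scale. In the libraries labelled HIF2α AKO, Kcnk3 rose 7.49-fold (2.91 ± 0.48 SE, adjusted p = 0.00199), where 15.6% of genes were called higher and 11.5% lower, and with upper quartile scaling 42.4% of the called genes were higher, against 57.5%. The call held when each library was left out in turn, with log2 fold changes from 2.15 to 2.94 in WT and from 2.59 to 3.24 in HIF2α AKO, and without the 3 libraries that stood apart it was 2.94 and 2.93. The summed adipocyte markers moved with it, from 8763 ± 3605 CPM in TN WT to 25041 ± 8493 in cold WT and from 10604 ± 2870 to 23710 ± 2344 CPM in HIF2α AKO (SD, n = 3), with 4 and 2 of 8 called higher and 0 lower, and their part in the rise of Kcnk3 and Kcnj11 was not tested. With 3 libraries against 3, the exact permutation test of the log2 CPM of Kcnk3 gave its smallest possible p, 0.1, in both genotypes.

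The change of Kcnk3 with cold was 0.37 ± 0.63 (SE) larger on the log2 scale in HIF2α AKO than in WT, a difference that was not called (edgeR adjusted p = 1.00). In TN, the genotypes overlapped and the log2 fold change of HIF2α AKO against WT was 0.37 ± 0.45 (adjusted p = 0.999). In cold, for which no test is given, it was 0.74 ± 0.45, and it was 0.43 without cold HIF2α AKO library 1, the library that had the highest Kcnk3, the highest thermogenic markers (8582 CPM) and high muscle markers. The part of the muscle transcripts in this value was not tested. In that cold comparison 2 of the 3 libraries labelled HIF2α AKO were above every cold WT library.

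Gm9899, an unnamed gene model on the strand opposite to Kcnk3, moved the same way. It had between 65 and 181 counts per library in TN WT and 69 to 211 in TN HIF2α AKO. In cold it had 227 to 245 counts in WT and 432 to 528 in HIF2α AKO. Its log2 fold change with cold was 1.32 ± 0.36 (SE, edgeR adjusted p = 0.0270) in WT and 2.11 ± 0.37 (adjusted p = 0.00272) in HIF2α AKO. Between the genotypes in cold it was 1.03 ± 0.35, which was not called (edgeR adjusted p = 0.9999). The strand setting of the counting is not given in the sources used here, so reads of Kcnk3 and Gm9899 cannot be told apart in the overlap.

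Kcnj11, the Kir6.2 pore, was low in TN and higher in every cold library than in any TN library of the same genotype. Its raw counts were 2, 8 and 15 in TN WT and 60, 91 and 34 in cold WT. In the libraries labelled HIF2α AKO they were 1, 60 and 6 in TN and 217, 106 and 118 in cold. The highest counts of the TN and of the cold knockout libraries, 60 and 217, were those of the libraries with high muscle markers.

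In WT, whose cold and TN libraries held no high muscle markers, Kcnj11 rose from 0.279 ± 0.230 to 2.65 ± 1.26 CPM (SD, n = 3). This was a log2 fold change of 3.29 ± 1.01 (SE, edgeR adjusted p = 0.0417), or 9.76-fold. Most TN libraries were under the minimum count of 10 of the filter, so Kcnj11 passed that filter through its cold libraries, where it was high. The call was close to the threshold of 0.05. It was lost in 7 of 12 fits that left out 1 library (cold WT library 1, 2 or 3, TN WT library 1 or 2, or cold HIF2α AKO library 2 or 3, adjusted p up to 0.122), while the log2 fold change stayed between 2.74 and 4.09. Without the 3 libraries that stood apart it was 4.09 ± 0.72 (adjusted p = 0.00703), and with the replicate number as a block it was 3.17 (adjusted p = 0.0684).

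The values of Kcnj11 in the libraries labelled HIF2α AKO chose the gene and are given as a description. Cold HIF2α AKO libraries had 10.5, 4.26 and 4.73 CPM, all above the cold WT libraries, which had 2.68, 3.89 and 1.37 CPM. Of all genes tested, 3.8% had all 3 cold HIF2α AKO libraries above all 3 cold WT libraries, and the choice of Kcnj11 used this contrast. The log2 fold change of cold HIF2α AKO against cold WT was 1.29 ± 0.84, and without library 1 it was 0.76 ± 0.93. The other HIF2α AKO libraries were also above the highest cold WT library, by 4.26 against 3.89 CPM.

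Against TN HIF2α AKO, the log2 fold change of Kcnj11 was 3.13 ± 0.92, and it was 5.60 without TN HIF2α AKO library 2, where Kcnj11 was at 1.88 CPM against 0.0390 and 0.212 CPM in the other 2 libraries of the group. In TN, HIF2α AKO against WT gave 1.45 ± 1.05 (adjusted p = 0.999), and -1.02 without that same library, so the sign of this difference rested on 1 library. Of all genes, 0.00653% were called between the genotypes in TN, which is 1 gene, and none of the 5 channel genes was it (446 genes had an unadjusted p under 0.05, and DESeq2 and voom called 11 and 2 genes).

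**Figure D2:**
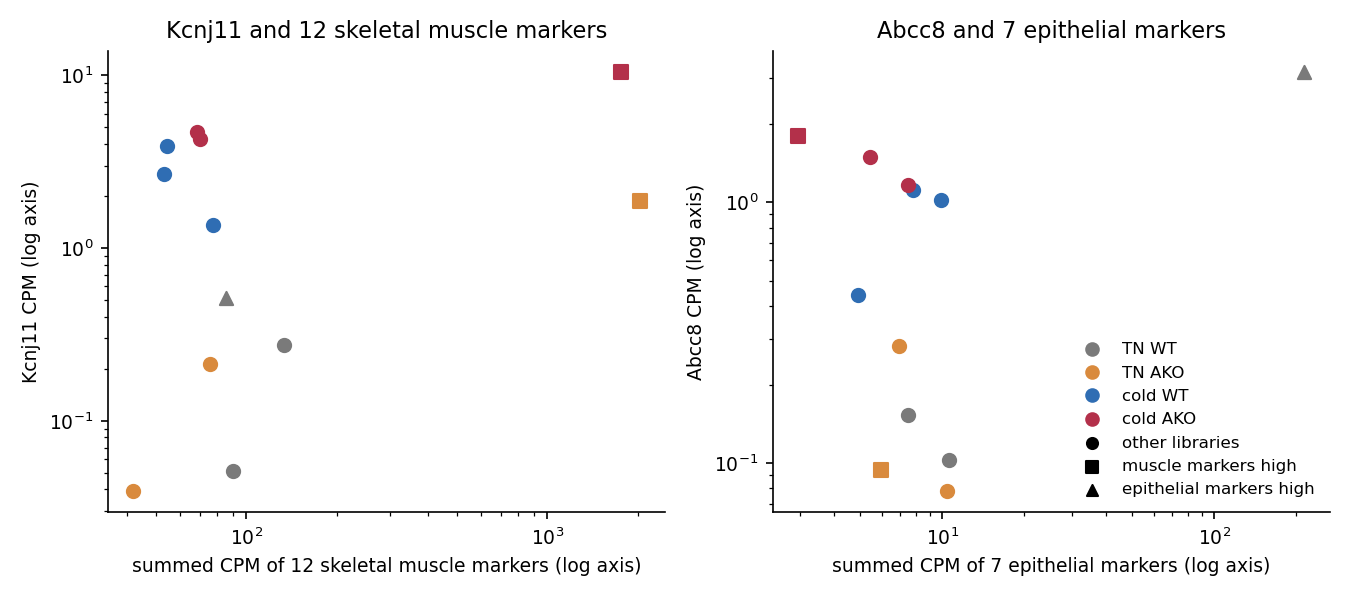
Kcnj11 against the summed CPM of 12 skeletal muscle markers (left) and Abcc8 against that of 7 epithelial markers (right), with 1 point per library and log axes. The muscle markers are at 1753 and 2026 CPM in 2 knockout libraries, each with the highest Kcnj11 of its group, and Abcc8 is highest, at 3.17 CPM, in the TN WT library with 214 CPM of epithelial markers.

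Abcc8, the SUR1 receptor, had few counts in all groups. Its raw counts were 6, 3 and 93 in TN WT and 25, 24 and 11 in cold WT, and in the libraries labelled HIF2α AKO 2, 3 and 8 in TN and 37, 37 and 29 in cold. The 93 counts belong to TN WT library 3, the library with high epithelial markers, and every other TN library was below every cold library. The part of the epithelial transcripts in this value was not tested.

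With all 12 libraries, Abcc8 differed by -0.39 ± 0.97 on the log2 scale between cold and TN in WT (adjusted p = 0.783). Without TN WT library 3 the difference was 2.68 ± 0.60 (adjusted p = 0.0129), without all 3 libraries that stood apart it was 2.67 ± 0.61 (adjusted p = 0.0194), and voom with quality weights for all 12 libraries gave 2.27 (adjusted p = 0.0179). The direction in WT was thus set by 1 library, TN WT library 3. Without that library, Abcc8 passed the filter on low counts only through its cold libraries, where it was high. The cold knockout libraries among them were also part of the reason for choosing the gene. The adjusted p-values of the fits without TN WT library 3 are therefore a description. The same library set the sign in TN, where HIF2α AKO against WT was -2.85 ± 1.16 (adjusted p = 0.999) with it and 0.21 ± 0.69 without it.

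As a description, since the gene was chosen by these libraries, Abcc8 had 1.79, 1.49 and 1.16 CPM in cold HIF2α AKO and 1.12, 1.03 and 0.442 CPM in cold WT. The groups did not overlap, but the lowest HIF2α AKO library and the highest cold WT library were 1.16 and 1.12 CPM, values that rest on 29 and 25 reads. The log2 fold change was 0.78 ± 0.97, and it was 0.62 ± 1.12 without cold HIF2α AKO library 1. Cold HIF2α AKO libraries 1 and 2 had the same 37 counts of Abcc8, whereas Kcnj11 was higher in library 1 than in library 2. Against TN HIF2α AKO, it was 3.24 ± 1.16.

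Markers of pancreatic islets, where SUR1 and Kir6.2 are abundant, were almost absent. The list (Ins1, Ins2, Gcg, Iapp, Pdx1 and Chga) summed to between 0.0390 and 0.247 CPM per library, with 1 to 7 counts, at least 3 of its 6 genes were at 0 in every library and 0 of 6 passed the filter. Markers of Schwann cells and neurons (8 genes, Sox10 and Th among them) summed to between 158 and 335 CPM. Of the 6 tested 1, S100b, rose with cold in each genotype, against 15.6% of all genes called higher in each. The median log2 fold change of the 6 with cold was -0.19 in WT and 0.14 in HIF2α AKO, beside -0.03 and -0.05 over all genes.

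**Figure D3:**
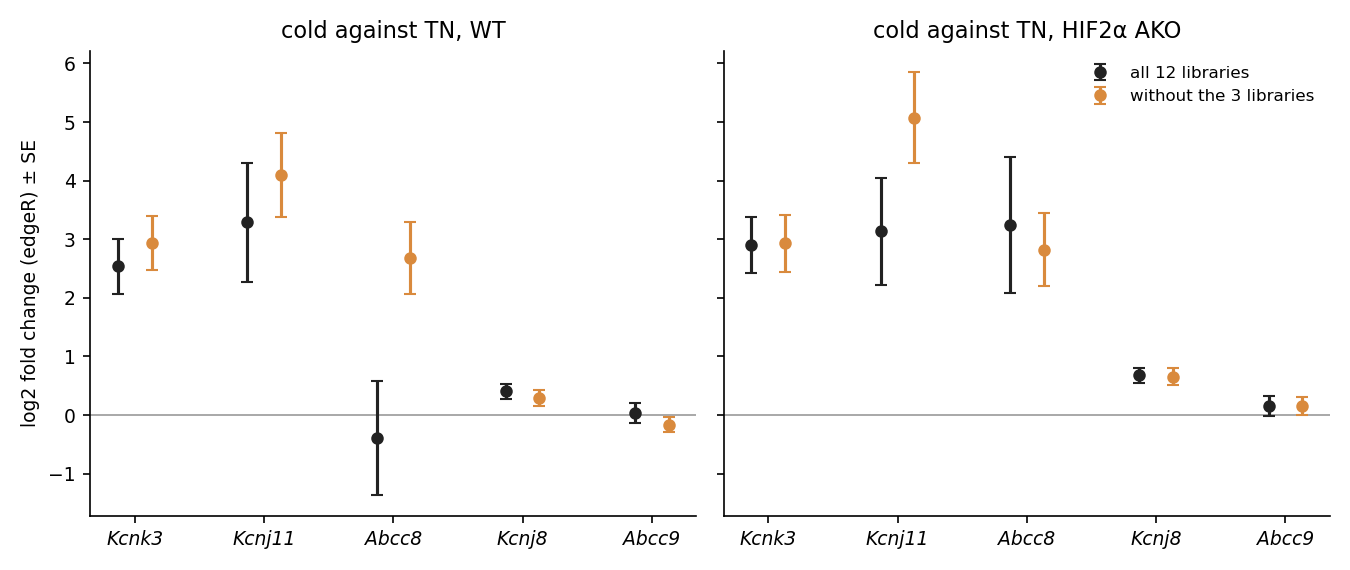
Log2 fold changes of cold against TN (edgeR, ± SE) in WT (left) and in the libraries labelled HIF2α AKO (right), with all 12 libraries in black and without the 3 libraries with muscle or epithelial transcripts in orange. Abcc8 in WT turns from -0.39 to 2.67, Kcnj11 moves from 3.29 to 4.09 in WT and from 3.13 to 5.07 in HIF2α AKO, and Kcnk3 in WT moves from 2.54 to 2.94.

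The subunits of the vascular type were abundant, and with cold the pore rose modestly while the receptor moved little. Kcnj8, the Kir6.1 pore, had 36.5, 31.5 and 26.0 CPM in TN WT and 46.4, 40.3 and 38.2 CPM in cold WT, and in the libraries labelled HIF2α AKO 25.6, 25.4 and 30.7 CPM in TN and 42.2, 42.3 and 46.1 CPM in cold. No cold library overlapped with a TN library of either genotype. In HIF2α AKO the rise was 1.60-fold (log2 fold change 0.68 ± 0.13 SE, edgeR adjusted p = 0.00470), and it was called in all 12 fits that left out 1 library, with values from 0.63 to 0.77.

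In WT the rise of Kcnj8 was 1.33-fold (0.41 ± 0.13 SE, adjusted p = 0.0453). This call was lost in 10 of 12 fits that left out 1 library, all but those without TN WT library 1 or TN HIF2α AKO library 3, with values from 0.29 to 0.53 and adjusted p up to 0.133. It was lost as well without the 3 libraries that stood apart (0.29 ± 0.13, adjusted p = 0.128) and with the replicate number as a block (0.41, adjusted p = 0.0693). The difference between the genotypes in the change with cold was 0.27 ± 0.18 (adjusted p = 1.00). Between the genotypes, HIF2α AKO against WT was -0.21 ± 0.13 in TN (adjusted p = 0.999) and, as a description, 0.06 ± 0.13 in cold.

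Abcc9, the SUR2 receptor, had 118, 149 and 82.7 CPM in TN WT and 125, 124 and 108 CPM in cold WT. In the libraries labelled HIF2α AKO it had 110, 106 and 111 CPM in TN and 118, 115 and 131 CPM in cold. TN WT spanned all the cold WT values, while the 3 cold HIF2α AKO libraries lay just above the 3 TN ones. The log2 fold change with cold was 0.03 ± 0.17 (adjusted p = 0.896) in WT and 0.15 ± 0.17 (adjusted p = 0.506) in HIF2α AKO, and the difference between these was 0.12 ± 0.24 (adjusted p = 1.00). The sign in WT was not stable: it was -0.16 without TN WT library 3 and -0.11 under upper quartile scaling. HIF2α AKO against WT was -0.10 ± 0.17 in TN (adjusted p = 0.999) and 0.02 ± 0.17 in cold.

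Markers of mural cells, in which Kir6.1 and SUR2 are typical, overlapped between temperatures. The list (12 genes, Pdgfrb, Rgs5 and Acta2 among them) summed to 939 ± 196 CPM in TN WT, 989 ± 90.0 in cold WT, 924 ± 168 in TN HIF2α AKO and 1068 ± 51.6 in cold HIF2α AKO. Of the 12 genes 1, Higd1b, rose with cold in each genotype, against 15.6% of all genes called higher in each. The median log2 fold change of the list with cold was 0.13 in WT and 0.28 in HIF2α AKO, beside -0.03 and -0.05 over all genes. Endothelial markers (8 genes) lay between 842 and 1186 CPM, with 0 called in WT and 1 (Emcn, higher) in HIF2α AKO. In whole tissue, a change in the number of cells of a type and a change of RNA per cell cannot be told apart.

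A RefSeq promoter of 300 bases (GRCm38.p6, 250 bases before the start of transcription and 50 after it) was listed for 2 of the 5 genes, and both are shown because Kcnj8 was called with cold and its neighbour Abcc9 was not. They were searched on both strands for the HIF core motif (ACGTG or GCGTG) and for the core of the cAMP response element (TGACG), which are printed in capitals where they occur. Kcnj8 lies at chr6:142571565-142571864 and Abcc9 at chr6:142702225-142702524, both on the minus strand and printed in the direction of transcription:
Kcnj8: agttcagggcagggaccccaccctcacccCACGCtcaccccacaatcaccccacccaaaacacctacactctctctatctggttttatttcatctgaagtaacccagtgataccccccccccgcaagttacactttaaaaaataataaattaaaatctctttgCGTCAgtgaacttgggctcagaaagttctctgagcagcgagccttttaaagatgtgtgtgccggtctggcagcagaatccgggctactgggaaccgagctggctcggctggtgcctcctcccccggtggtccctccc
Abcc9: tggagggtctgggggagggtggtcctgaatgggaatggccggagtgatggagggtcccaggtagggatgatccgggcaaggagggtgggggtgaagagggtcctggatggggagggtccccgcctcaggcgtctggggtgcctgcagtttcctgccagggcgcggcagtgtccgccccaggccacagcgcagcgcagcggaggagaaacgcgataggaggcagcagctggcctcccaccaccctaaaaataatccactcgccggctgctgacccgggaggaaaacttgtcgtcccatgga
The Kcnj8 window held GCGTG on the opposite strand, printed as its reverse complement from base -221, and TGACG on the opposite strand from base -87. In the Abcc9 window there were 0 matches. Of 32851 RefSeq promoters of this length, 43.8% held ACGTG or GCGTG and 20.8% held TGACG, so the matches are common letters and are given as a description of the windows.

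Per kilobase of transcript (RPKM, on the longest curated transcript), Kcnk3 had the highest mean level of the potassium channels in cold. Among 77 genes of pore-forming potassium channel subunits, its mean level ranked 3 in TN WT (9.32 RPKM, after Kcnn4 with 18.8 and Kcnj8 with 12.3) and 2 in TN HIF2α AKO (12.1 RPKM). It ranked 1 in cold WT (54.2 ± 16.4 RPKM) and in cold HIF2α AKO (90.4 ± 31.7 RPKM), above Kcnj8 with 16.3 ± 1.68 and 17.1 ± 0.87 RPKM. The lowest cold library of Kcnk3, at 37.4 RPKM, was above the highest cold library of Kcnj8, at 18.2 RPKM, whereas the TN libraries of both genes overlapped. The ranks in TN depended on the length used. Over the merged exons of each gene (5115 bases for Kcnn4, against 1990 in its transcript), Kcnn4 was at 7.31 RPKM in TN WT and Kcnk3 ranked 2 there (8.94 RPKM, after Kcnj8), while in TN HIF2α AKO Kcnk3 ranked 1 (11.6 RPKM, above Kcnj8 with 10.7). In cold it ranked 1 on both lengths. Kcnj11 ranked 46 in TN WT and 23 in cold WT (0.0888 and 0.842 RPKM), and 39 and 16 in HIF2α AKO (0.227 and 2.07 RPKM).

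Kcnj8 and Abcc9 made up most of the KATP transcripts in every library. On the RPKM scale, Kcnj11 was 0.113, 0.700 and 1.57% of the summed level of Kcnj11 and Kcnj8 in TN WT and 4.48, 7.26 and 2.82% in cold WT. In HIF2α AKO it was 0.124, 5.68 and 0.557% in TN and 16.8, 7.55 and 7.68% in cold. Every cold WT library was above every TN WT library, and the 16.8% and 5.68% came from the libraries with high muscle markers.

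Abcc8 was between 0.106 and 5.57% of the summed RPKM of Abcc8 and Abcc9. Cold WT libraries were at 1.35, 1.25 and 0.624% and cold HIF2α AKO libraries at 2.28, 1.96 and 1.34%, and the 5.57% was that of TN WT library 3. In each of the 6 cold libraries the Abcc8 share of the receptors was below the Kcnj11 share of the pores. The ratio of Kcnj8 to Abcc9 in RPKM was 0.819 ± 0.171 in TN WT, 0.733 ± 0.0715 in TN HIF2α AKO, 1.03 ± 0.0696 in cold WT and 1.06 ± 0.0283 in cold HIF2α AKO (SD, n = 3).

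**Figure D4:**
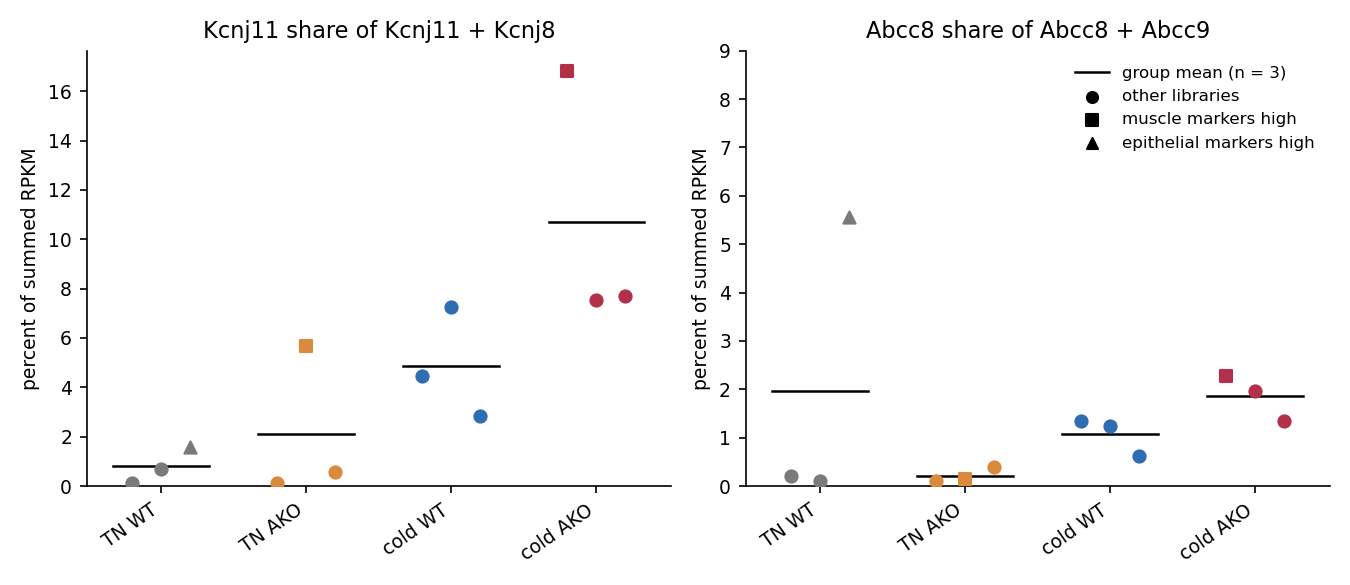
Share of Kcnj11 in the summed RPKM of both Kir6 pores (left) and of Abcc8 in that of both sulfonylurea receptors (right), in percent, with 1 point per library and a line at each group mean. The Kcnj11 share reaches 16.8% in the cold HIF2α AKO library with muscle markers and 7.68% in the others of its group, and the Abcc8 share reaches 5.57% in the TN WT library with epithelial markers and 2.28% elsewhere.

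The other potassium channels and ABCC transporters were counted for comparison. Of the 77 pore genes 49 were tested, and with cold in WT 5 were called higher and 3 lower (against 15.6% and 5.68% of all genes), with a median log2 fold change of 0.00 beside -0.03 over all genes. The members Kcnk3, Kcnj11 and Kcnj8 were 3 of the 5. The count of higher genes was 1 without TN WT library 2, it was 2 without TN WT library 1 or cold WT library 1 or 3, and it was 3 without cold HIF2α AKO library 2 or 3. The count of lower genes was 1 without TN WT library 1 or 2 or cold WT library 3, and 5 without TN WT library 3.

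Of the others in WT, Kcnc2, a fast voltage-gated channel of neurons, rose (log2 fold change 1.51 ± 0.46, adjusted p = 0.0383) from 2.16, 1.27 and 2.80 CPM in TN WT to 3.27, 4.40 and 10.1 CPM in cold WT. Without cold WT library 3 it was 0.88 (adjusted p = 0.188), and without TN WT library 1 or 2 or TN HIF2α AKO library 3 the call was lost as well. Kcnn1, a small-conductance calcium-activated channel, rose (0.93 ± 0.24, adjusted p = 0.0200), a call lost without cold WT library 1 or TN WT library 1 or 2 (0.82 to 1.10 in all 12 fits that left out 1 library). Kcnj2, the strong inward rectifier Kir2.1, fell from 7.82 to 2.98 CPM (-1.39 ± 0.27, adjusted p = 0.00631), and this call held in all 12 such fits. Kcna2, a voltage-gated channel of axons, fell (-0.54 ± 0.14, adjusted p = 0.0250), and Kcna3, the Kv1.3 channel known from T cells, fell from 11.7 to 5.80 CPM (-1.02 ± 0.31, adjusted p = 0.0422). The call of Kcna2 was lost in 3 of the 12 fits (without TN WT library 1 or 2 or cold WT library 3) and that of Kcna3 in 6 (without TN WT library 1 or 2, cold WT library 1 or 3, TN HIF2α AKO library 3 or cold HIF2α AKO library 2). Beside Kcna3, lymphocyte markers (8 genes) summed to 1355 ± 303 CPM in TN WT and 854 ± 238 in cold WT. Of these 8 genes 1 (Ms4a1) was called lower, against 5.68% of all genes. The part of lymphocytes in the value of Kcna3 was not tested.

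In the libraries labelled HIF2α AKO, Kcnj11 was left out of the count because it was chosen on them. Of the other 48 pore genes tested, 5 were called higher with cold and 3 lower, against 15.6% and 11.5% of all genes, with Kcnk3 and Kcnj8 among the 5. Kcnn1 rose there too (1.02 ± 0.24, adjusted p = 0.0117), and Kcna3 fell (-1.10 ± 0.32, adjusted p = 0.0284). The others, named after their values had been seen, were Kcnk4 (1.58) and Kcnh6 (3.37, from 0.120 to 1.27 CPM) among the higher and Kcnk6 (-0.64) and Kcnma1 (-0.45) among the lower. The log2 fold change of Kcnh6 was 2.57 without cold HIF2α AKO library 1. The count of lower genes was 0 without cold HIF2α AKO library 1 or TN HIF2α AKO library 1 or 3, it was 1 without cold HIF2α AKO library 2 or TN WT library 1, and it was 5 without cold WT library 3. Without the 3 libraries that stood apart, Kcnk4 and Kcnn1 were still called, and Kcnh6 (2.43, adjusted p = 0.0836), Kcna3 (adjusted p = 0.0598), Kcnk6 and Kcnma1 were not. Kcnj2, at 4.51 CPM in TN and 3.82 in cold, was not called with cold (-0.24 ± 0.27, adjusted p = 0.513). Its change with cold differed between the genotypes by 1.15 ± 0.38 (edgeR adjusted p = 1.00), and at TN all 3 HIF2α AKO libraries were below all 3 WT libraries (-0.79 ± 0.27, edgeR adjusted p = 0.999), so neither difference was called.

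Of the 10 ABCC genes 8 were tested, and with cold in WT 2 were called higher and 0 lower, against 15.6% and 5.68% of all genes. Abcc2, an export pump for conjugated anions, rose 4.90-fold (2.29 ± 0.53, adjusted p = 0.0131) from 0.361 CPM, with 5 to 17 counts in each TN library, a call lost without cold WT library 3 or TN WT library 2, and Abcc10, another export pump, rose 1.35-fold (0.43 ± 0.09, adjusted p = 0.00673). In HIF2α AKO, of 7 ABCC genes tested beside Abcc8, the same 2 genes rose, by 2.58 ± 0.55 and 0.43 ± 0.09, and Abcc3, also named after its value had been seen, fell (-0.84 ± 0.24, adjusted p = 0.0258). Without the 3 libraries that stood apart, none of these 3 was called there (Abcc2 1.79, adjusted p = 0.0805, Abcc10 0.35, adjusted p = 0.0658, Abcc3 -0.88, adjusted p = 0.107), and the call of Abcc3 was lost without any 1 of the 3 cold HIF2α AKO libraries or TN HIF2α AKO library 1 or 3. None of the tested pore and ABCC genes was called between the genotypes at TN.

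**Figure D5:**
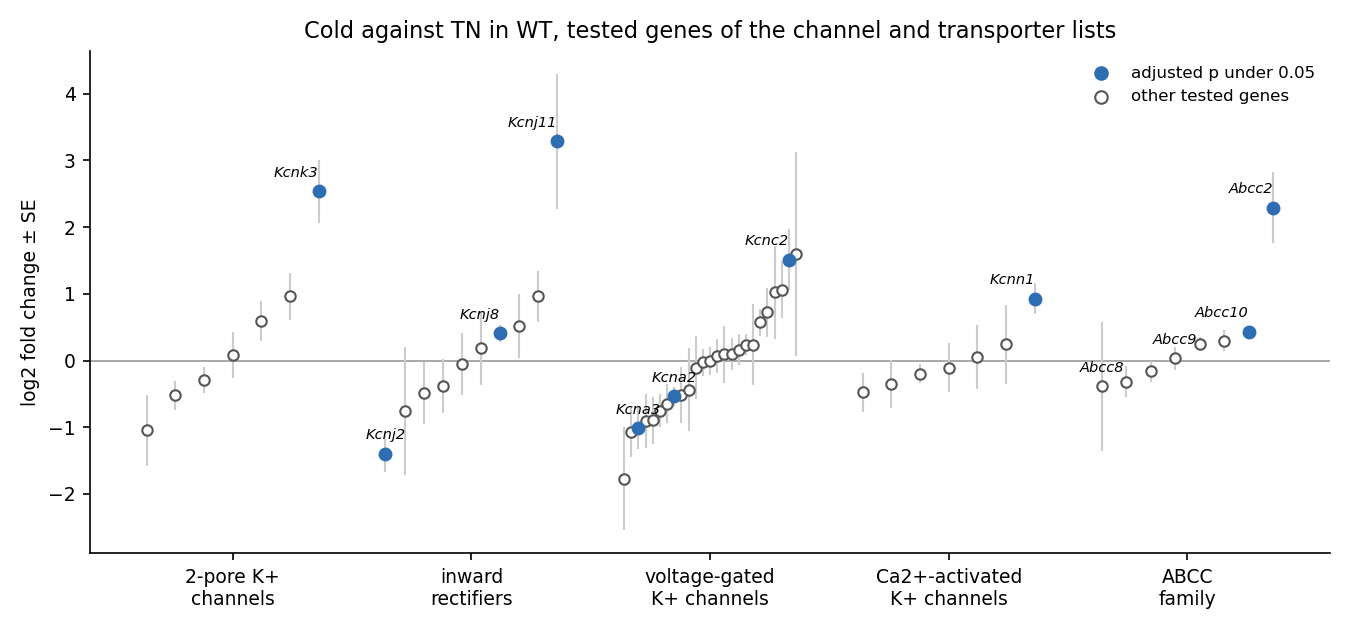
Log2 fold change of cold against TN in WT (edgeR, ± SE) for each tested gene of 5 lists, ordered by value within a list, with filled points for an adjusted p under 0.05. Kcnj11 and Kcnk3, at 3.29 and 2.54, are the highest of their lists, and Abcc2 is the highest of the ABCC family at 2.29 while Abcc8 and Abcc9 are at -0.39 and 0.03.

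The genes whose log2 CPM followed each member most closely were taken by Pearson's r over the 12 libraries, as a description. The libraries share a tissue and differ mainly by temperature, so r is high for many genes. For Kcnk3 they were Fbp2, a muscle-type fructose bisphosphatase (r = 0.99), Acot13, a mitochondrial acyl-CoA thioesterase (r = 0.99), 1700037H04Rik, Timm10b and Aspg (each r = 0.98), and Fbp2 and Acot13 also led over the 11 libraries without cold HIF2α AKO library 1. Over the 9 libraries without muscle or epithelial transcripts they ranked 4 and 6, and Hmox2, Chmp6 and Slc16a8 led (each r = 0.99). Among the members, Kcnk3 had r = 0.91 with Kcnj11, 0.76 with Kcnj8, 0.72 with Abcc8 and 0.05 with Abcc9, and over those 9 libraries 0.91, 0.84, 0.97 and -0.17. Kcnj11 and Abcc8 were chosen partly for high counts in cold knockout libraries, where Kcnk3 was high as well. Such libraries enter each r, so the r of Kcnk3 with Kcnj11 and with Abcc8 depends in part on the choice. These values cannot be set against the r of Kcnk3 with Kcnj8 and with Abcc9.

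For Kcnj11 the closest were Murc, which encodes a muscle caveolar protein (r = 0.97), Kcnn1, Rangrf, Nr2f6 and Nab1. Murc stayed first without cold HIF2α AKO library 1 (r = 0.96). Over the 9 libraries without muscle or epithelial transcripts it ranked 34, also with r = 0.96, so its rank fell while its r barely changed. For Abcc8 the closest were Epn3 (r = 0.97), Esrp2, an epithelial splicing factor (r = 0.93), Hey1, Pih1d1 and Ssbp2. Over those 9 libraries Esrp2 ranked 1000 (r = 0.88) and Epn3 ranked 23 (r = 0.97). Between the neighbours Kcnj11 and Abcc8, r was 0.66 over 12 libraries and 0.95 over the 9, and between Kcnj8 and Abcc9 it was 0.52 and 0.22. Kcnj11 and Abcc8 were chosen partly because both were high in cold HIF2α AKO libraries. Such libraries enter both values of r, so the r of this pair depends in part on the choice and cannot be set against that of Kcnj8 and Abcc9. The lists for Kcnj8, led by Med16 (r = 0.93) ahead of Lrp10, Zfp777, Gosr2 and Nup88, and for Abcc9, led by Col12a1 (r = 0.91) ahead of Dhx8, Rapgef1 and Nup62, held no other channel gene.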

How the data were processed

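RNA-seq libraries of iWAT from 4 groups (WT or HIF2α AKO, at TN or in cold, 3 libraries each) were grouped by their labels. The authors deposited raw read counts per gene: reads were trimmed with Trim Galore 0.4.4, aligned to GRCm38 with STAR 2.6.1d and counted with HTSeq 0.13.5, per the labels and the submitters' processing notes. Annotation, strand setting and read length are not given in the sources used here. Tallies outside genes (21.9 to 27.0% of listed reads) were left out. The counts were fitted with edgeR 4.0.16 in R 4.3.3 (quasi-likelihood, 1 factor of 4 groups, TMM, filterByExpr with a minimum count of 10 and total of 15), with Benjamini-Hochberg adjustment over 15306 genes and a limit of 0.05. The code was tested on simulated data. CPM were TMM-scaled, and log2 CPM used a prior count of 2. Exact permutation tests were two-sided. Depths of 22368316 to 35204631 counts make a count of 0 allow up to 3 counts, which covers counting error only. Alternatives were other scalings, no filter, the 2 groups alone, a replicate block, each library left out, DESeq2 1.42.0 and limma 3.58.1 voom.

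The members and the lists of channels, transporters and markers were chosen with earlier results of these data known. Besides the members, the top called genes in each direction (at most 3) per channel list in cold against TN in WT and in HIF2α AKO against WT at TN were named, as were the 5 genes most correlated with each member (1 of them is not reported here), Epas1 and the marker lists (muscle, mural, endothelial, thermogenic, adipocyte, Schwann cell and neuron, islet, lymphocyte, epithelial).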

Additional observations from a re-analysis of the deposited data

How the results depend on the processing

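The calls of Kcnk3 with cold in both genotypes and of Kcnj8 in HIF2α AKO held under every alternative run. With only the groups compared in the fit, 1752 genes were called with cold in WT against 3259, 0 between the genotypes at each temperature against 1, 3 pore genes higher and 1 lower in WT, and Kcnj8 in WT was 0.41 (adjusted p = 0.109). DESeq2 called 11 genes between the genotypes in TN and 7 in cold, 8 pore genes higher and 6 lower with cold in WT and 6 lower in HIF2α AKO. Voom called 2 genes between the genotypes at each temperature and 5 and 8 pore genes lower, and gave 2.27 for Abcc8 and 0.30 for Kcnj8 with cold in WT and 0.0068 for Abcc8 in TN. Upper quartile scaling gave 0.27 for Kcnj8 and -0.11 for Abcc9 in WT and 6 pore genes lower in each genotype, and no filter gave 0.37 and -0.0067. Without the 3 libraries with muscle or epithelial transcripts, 1834 genes were called with cold in HIF2α AKO against 4138, with 0 pore genes lower and 0 ABCC genes higher or lower (Kcnj11 and Abcc8 left out); in WT, 5 pore genes were lower, Abcc8 was 2.67, Kcnj8 0.29 and Abcc9 -0.16; at TN, Kcnj11 was -0.22 and Abcc8 0.48. The cause of these moves was not tested, and the last fit also had fewer libraries. The labels give replicates only a number. Of 18 pairs of same-numbered libraries, 5 had deviations correlated above 0.1 (from -0.43 to 0.39), which cannot tell whether same-numbered libraries were handled together. With the replicate block, Kcnj11 in WT was 3.17 (adjusted p = 0.0684), Kcnj8 0.41 (0.0693) and Abcc8 0.32, with 2 pore genes higher in WT and 1 lower in HIF2α AKO, and 2561 and 3313 genes were called with cold in WT and HIF2α AKO.

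Leaving out each library in turn gave 1381 (without TN WT library 2) to 3722 calls with cold in WT and 1613 (without cold HIF2α AKO library 1) to 4853 in HIF2α AKO. With cold in WT, it gave 2.74 to 4.09 for Kcnj11, -0.94 to 2.68 for Abcc8, 0.29 to 0.53 for Kcnj8 and -0.16 to 0.23 for Abcc9, and 1 to 6 pore genes higher, 1 to 5 lower and 1 to 3 ABCC genes higher. In HIF2α AKO, 0 to 5 pore genes and 0 to 1 ABCC gene were lower. In TN, it gave -1.02 to 2.25 for Kcnj11, -3.63 to 0.21 for Abcc8 and -0.29 to 0.12 for Abcc9. Among the members, Kcnj11 and Abcc8 had under 20 counts in 5 of 6 TN libraries, which limits their precision.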
